A study of Mus musculus with 4 samples.

Results

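The genes of the mitochondrial respiratory chain and ATP synthase were examined in bone marrow stromal cells of mature and elderly mice. Members were the protein-coding genes whose symbols carry the Nduf, Sdh, Uqcr, Cox4 to Cox8 or Atp5 stem, together with the protein-coding genes of mitochondrial DNA. This choice gave 104 of the 37310 annotated genes with a row in the count tables, namely 91 nuclear genes and the 13 protein-coding genes of mitochondrial DNA. Of the nuclear genes, 81 encode subunits and 10 do not. The 10 were the complex I assembly factors Ndufaf1 to Ndufaf4, the paralogues Ndufa4l2 and Cox7a2l, and 4 others (Cox4nb, Atp5s, Atp5sl and Atp5l-ps1).

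RNA was sequenced from cells sorted out of the marrow as negative for Ter119, CD31 and CD45 and positive for the leptin receptor (Lin-LEPR+), a gate that collects skeletal stem and progenitor cells. The sort is described in the study's methods, while the labels speak of whole bone marrow only. Mature animals were 3 months old and elderly animals 24 months old, and all were untreated wild-type (WT) male C57Bl/6 mice. Each age had 2 libraries, which the labels number as mouse 1 and mouse 2, while the methods give RNA pooled from 3 to 4 mice in a group. Whether the libraries of an age came from different animals or pools is not stated, so the spread between them may be partly technical.

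The respiratory chain sits in the inner mitochondrial membrane and passes electrons from NADH and succinate to oxygen through complexes I to IV. The proton gradient that complexes I, III and IV build drives ATP synthase, called complex V. Complexes I, III, IV and V combine subunits encoded in the nucleus with subunits encoded in mitochondrial DNA, whereas complex II is encoded wholly in the nucleus. In the marrow, stromal progenitors are often described as relying largely on glycolysis and as raising respiration when they differentiate.

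The libraries held 10472117 to 15650518 counts. Levels are given in counts-per-million (CPM) after TMM scaling, which corrects library sizes for a few genes that take a large share of the reads. Lepr, the gate's own marker, was counted at 4121 to 6419 CPM, and none of 6 LEPR+ stromal markers passed the test between ages. Their summed level was 24586 and 25644 CPM in mature and 15367 and 21083 CPM in elderly libraries. Some genes of other marrow cells were higher in the elderly libraries. Of the tested markers, 5 of 10 erythroid, 4 of 7 neutrophil, 4 of 7 macrophage and 2 of 5 plasma cell markers and 4 of 11 cell division genes rose with age, and none fell. None of the 7 B-lineage, 6 megakaryocyte, 4 endothelial, 7 skeletal muscle and 3 brown adipocyte markers tested was called. Ptprc, which encodes CD45, was counted at 0.346 and 0.0862 CPM in mature and at 1.08 and 0.521 CPM in elderly libraries and was not called. With 1 to 12 counts a library, these values say little of its expression. The part of these cells in the values below was not tested.

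Of the respiratory chain genes, a single paralogue and no subunit passed the test between ages. Of the 104 genes, 97 had more than 2 counts in all and were tested with edgeR's quasi-likelihood test against 22214 genes. Only Ndufa4l2 was higher in elderly libraries at an adjusted p under 0.05, and 0 genes were lower. Over all genes tested, 1.94% were called higher and 0.423% lower. At an unadjusted p under 0.05, 2 members passed, Ndufa4l2 and Cox5a, against 10.9% of all genes. In these bulk samples, fewer cells of a type and less RNA per cell cannot be told apart.

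The fold changes of the nuclear subunits centred close to 0. Their median log2 fold change (elderly minus mature) was 0.047 over 79 tested subunits, against -0.0059 over all genes tested, with 43 positive and 36 negative values. The median of the 11 tested mitochondria-encoded subunits was -0.14, with 4 positive and 7 negative values. Leaving out 1 library at a time moved it between -0.39 and 0.13, so its direction was not stable, and the nuclear median between -0.081 and 0.095. Both elderly libraries lay above both mature ones for 19 nuclear subunits and below them for 14, or 24.1% and 17.7% of those tested. Over all genes these shares were 22% and 18.9%. None of the 11 mitochondria-encoded subunits separated the ages in this way. The 95% interval of the log2 fold change lay between -1 and 1 for 39 of 79 nuclear subunits (49.4%). It did so for 7 of 11 mitochondria-encoded subunits (63.6%) and for 28.8% of all genes. These shares were not matched for level, on which the width of the interval depends. Of the 38 nuclear subunits with a mean of at least 10 CPM, 33 had such an interval. A 2-fold difference lay outside the interval for the subunits within these bounds. For the other subunits tested, the interval held a 2-fold difference in at least 1 direction.

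**Figure D1:**
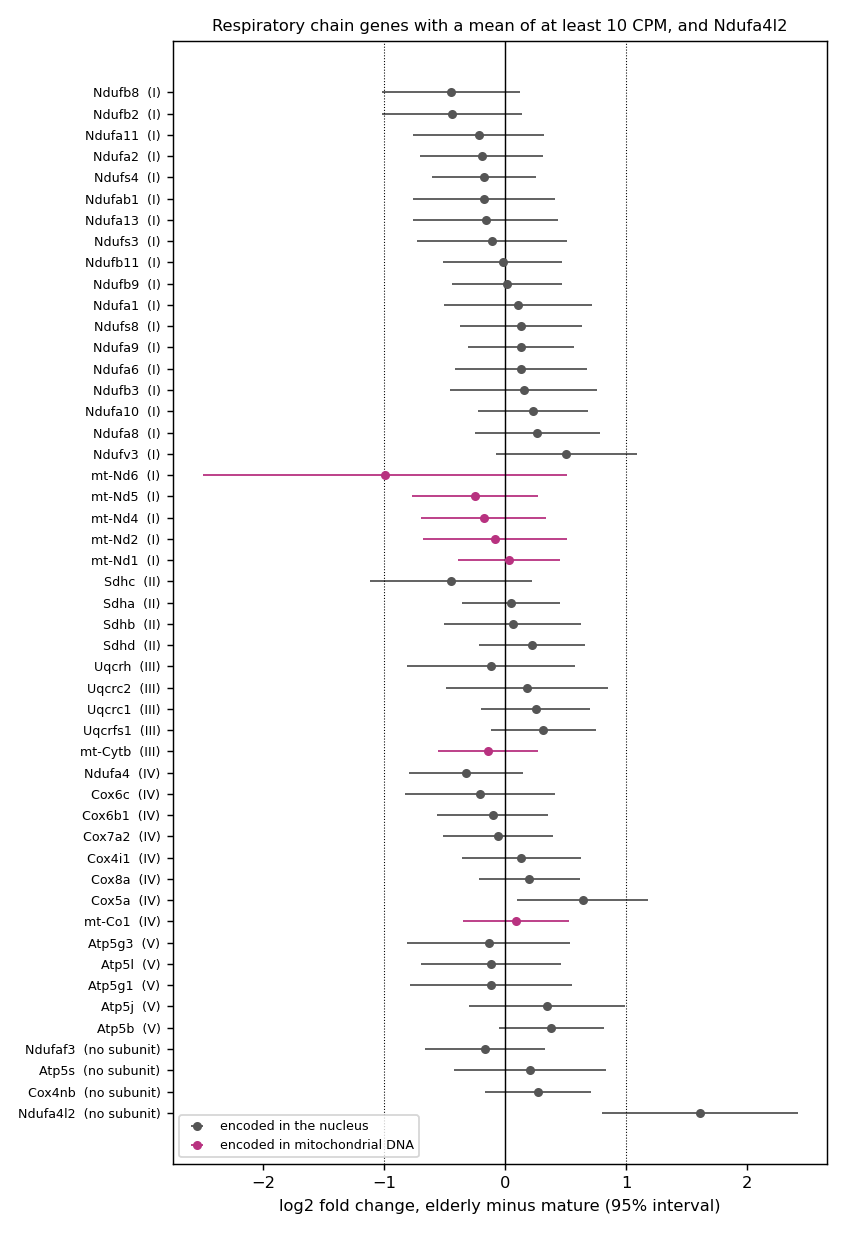
Log2 fold change (elderly minus mature) with its 95% interval for each respiratory chain gene with a mean of at least 10 CPM, and for Ndufa4l2, ordered by complex (Roman numeral after the gene). Ndufa4l2 at 1.61 is the only gene called, and mt-Nd6 has the widest interval.

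Summed by complex and genome, subunit counts had elderly over mature ratios of 0.908 to 1.15. The nuclear subunits together took 1657 and 1506 CPM in mature and 1716 and 1587 CPM in elderly libraries, 1.04 times as much in elderly ones. The mitochondria-encoded subunits took 4465 and 3658 CPM against 4631 and 3636 CPM, a ratio of 1.02. Most of these counts were of mt-Co1. Without mt-Co1 the sums were 1416 and 1151 CPM against 1304 and 1039 CPM, a ratio of 0.913. The libraries of the 2 ages overlapped in the sum of all nuclear subunits and in that of the mitochondria-encoded subunits, with or without mt-Co1.

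Mitochondria-encoded over nuclear-encoded counts came to 2.70 and 2.43 in mature and to 2.70 and 2.29 in elderly libraries (exact permutation test, 2-sided, p = 1). With 2 libraries a side, the exact permutation test cannot go below p = 0.33. The elderly libraries lay above both mature ones in the sums of complex II and of nuclear complex III, both at that smallest p. For complex II the ratio was 1.06 and for nuclear complex III, whose sum lacks the subunit Cyc1, 1.15. Nuclear complex V was 1.13 times higher in elderly libraries, with overlap, and nuclear complexes I and IV had ratios of 0.999 and 1.04.

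**Figure D2:**
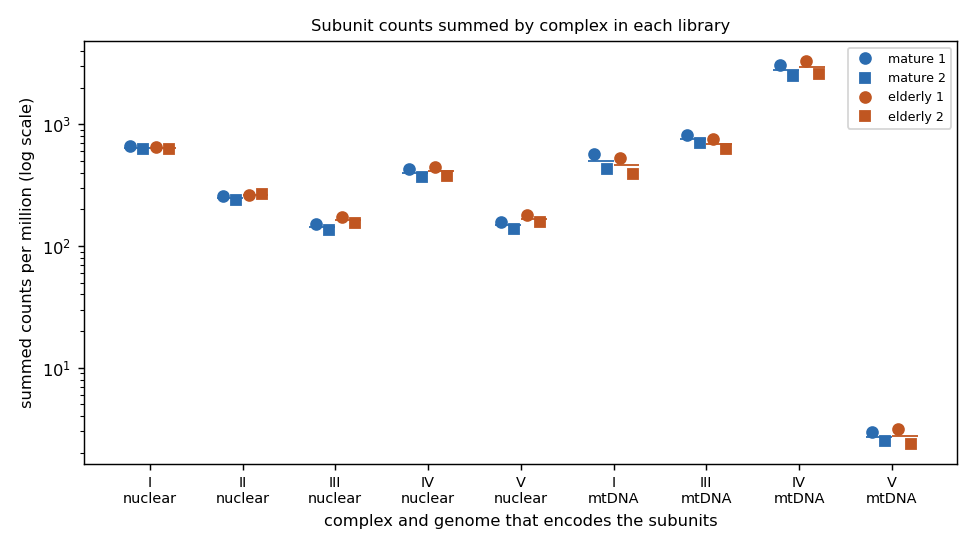
Summed CPM of the subunits of each complex (log scale), split by the genome that encodes them, in each of the 4 libraries (blue mature, orange elderly, circle replicate 1, square replicate 2, line the mean of an age). The ages overlap in every sum but complex II and nuclear complex III, and complex V of mitochondrial DNA stands near 3 CPM.

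Ndufa4l2 (ENSMUSG00000040280, mm9 chr10:126951995-126954208, plus strand) was the gene that rose. It encodes a paralogue of the subunit Ndufa4 and is known as a target of hypoxia-inducible factor, and its product is described as lowering complex I activity. It was counted 53 and 42 times in mature and 97 and 249 times in elderly libraries. These counts came to 4.59 and 3.62 CPM against 8.74 and 16.2 CPM, with means of 4.10 ± 0.683 CPM (SD, n = 2) for mature and 12.5 ± 5.28 CPM (SD, n = 2) for elderly libraries. Both elderly libraries lay above both mature ones, and the elderly libraries differed from each other 1.85-fold.

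The log2 fold change of Ndufa4l2 was 1.61 (SE 0.37, 95% interval 0.80 to 2.42, edgeR adjusted p = 0.0454). All counts came from 1 coding transcript, and every 40-base window of it occurs once in the genome. The call did not hold with the exact test at the dispersion the study set, 0.2 (adjusted p = 0.444), or without any single library. The log2 fold change was 1.80 without mature replicate 1 and 1.43 without mature replicate 2 (adjusted p = 0.0577 and 0.132). It was 2.01 without elderly replicate 1 and 1.09 without elderly replicate 2 (adjusted p = 0.611 and 0.605), and in these 2 fits no gene at all was called. With the replicate number as a block the adjusted p was 2.2e-04. The labels do not pair libraries of the same number across ages, and this block raised the calls over all genes from 430 higher and 94 lower to 962 and 314. Its adjusted p is therefore no firmer ground for the call.

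Summed over each list, erythroid, neutrophil and macrophage markers were also higher in both elderly libraries than in both mature ones. The sums were 170 to 408, 1149 to 2010 and 26.3 to 26.6 CPM in mature libraries and 1213 to 1259, 4165 to 4320 and 52.0 to 87.1 CPM in elderly ones. No marker of these 3 lists was at 0 in all libraries. The sums of cell division genes and plasma cell markers were higher in both elderly libraries too. They were 199 to 417 and 120 to 145 CPM in mature and 754 to 1087 and 156 to 164 CPM in elderly libraries. The LEPR+ stromal, B-lineage and brown adipocyte sums were lower in both elderly libraries, and the megakaryocyte, endothelial and skeletal muscle sums overlapped. The part of any of these cells in the level of Ndufa4l2 was not tested.

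Ndufa4 itself was not called. This subunit, first named as a complex I subunit and now placed in complex IV, was counted at 57.4 and 48.7 CPM in mature and at 45.8 and 39.1 CPM in elderly libraries. Both elderly libraries lay below both mature ones, but the log2 fold change of -0.32 (SE 0.22) did not pass the test (adjusted p = 0.667). Per kilobase of countable exon, Ndufa4 averaged 97.0 CPM and Ndufa4l2 8.76 CPM. Countable exon here means the exonic bases that no other transcript covers, since reads on shared bases were not counted.

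Complex I takes up NADH. Its 36 nuclear subunits summed to 661 and 626 CPM in mature and 653 and 632 CPM in elderly libraries, and their median log2 fold change was -0.0033. The 7 core subunits, which carry the flavin and the iron-sulfur clusters, ranged from -0.61 to 0.52, and the 29 accessory subunits from -1.71 to 1.47. The ends of the accessory range were Ndufs5 and Ndufs6, with at most 7 counts in any library. The best covered subunits per kilobase were Ndufb9, Ndufb11 and Ndufa2, with 74.7, 64.1 and 53.4 CPM, all accessory. Of these, Ndufb9 and Ndufb11 overlapped between ages (log2 fold changes of 0.016 and -0.021). Ndufa2 was lower in both elderly libraries, at 26.2 and 23.9 CPM after 29.6 and 27.7 CPM (log2 fold change -0.19, SE 0.23).

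Among the nuclear complex I subunits of at least 10 CPM, Ndufv3 had the highest log2 fold change. This accessory subunit of the NADH-binding arm was counted at 15.1 and 13.6 CPM in mature and at 17.8 and 23.0 CPM in elderly libraries (log2 fold change 0.51, SE 0.27, adjusted p = 0.552). The lowest of these nuclear subunits was Ndufb8, a membrane arm subunit widely used as a marker of assembled complex I. It was counted at 19.6 and 22.2 CPM in mature and at 13.7 and 16.9 CPM in elderly libraries (log2 fold change -0.45, SE 0.26, adjusted p = 0.608). Neither gene overlapped between ages, and neither difference passed the test.

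Complex II, succinate dehydrogenase, also works in the citric acid cycle. Its flavoprotein Sdha varied least of the 4 subunits, at 148 and 140 CPM in mature and 141 and 156 CPM in elderly libraries (log2 fold change 0.047, SE 0.19). The iron-sulfur subunit Sdhb was counted at 17.6, 15.4, 18.1 and 16.4 CPM, in the order mature 1, mature 2, elderly 1 and elderly 2, which is the order of all lists of 4 values here.

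The membrane anchors of complex II had log2 fold changes of opposite sign. Sdhd was counted at 83.0, 71.1, 95.9 and 83.9 CPM (log2 fold change 0.22, SE 0.20), higher in both elderly libraries. Sdhc was counted at 10.8, 14.1, 7.75 and 10.5 CPM (log2 fold change -0.45, SE 0.31), lower in both elderly libraries. Neither passed the test, with adjusted p = 0.762 for Sdhd and 0.667 for Sdhc, and the difference between the anchors was not tested.

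Complex III passes electrons from ubiquinol to cytochrome c. The summed counts of its nuclear members, 152, 134, 173 and 156 CPM, came mostly from Uqcrfs1 and Uqcrc1. The symbol of Cyc1, the cytochrome c1 subunit, matches none of the chosen stems, so Cyc1 is not in this sum. Cyc1 was counted at 61.3, 55.6, 67.4 and 66.1 CPM (log2 fold change 0.19, SE 0.20, adjusted p = 0.82). Uqcrfs1, the Rieske iron-sulfur protein, was counted at 53.8, 53.2, 69.4 and 63.8 CPM (log2 fold change 0.32, SE 0.20, adjusted p = 0.65). Uqcrc1, a large matrix-side subunit, was counted at 55.6, 46.6, 60.04 and 61.8 CPM (log2 fold change 0.25, SE 0.21, adjusted p = 0.724).

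Uqcrfs1 and Uqcrc1 both had their higher values in the elderly libraries without passing the test. Uqcrh, the hinge protein, had the lowest log2 fold change among the nuclear subunits of complex III with at least 10 CPM, -0.12 (SE 0.32). All counts of Uqcrh came from retained-intron transcripts, so its value does not describe the coding transcript.

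Complex IV, cytochrome c oxidase, reduces oxygen. Its nuclear subunits summed to 426, 366, 449 and 375 CPM, and their median log2 fold change was 0.16 over 16 tested subunits. Over the 7 of them with a mean of at least 10 CPM the median was -0.062, so its sign rests on subunits with few counts. Cox4i1, Cox8a and Cox6b1 were highest per kilobase, with 155, 151 and 124 CPM. Cox5a, which pairs with the Cox4 subunit early in assembly, had the highest log2 fold change of complex IV among nuclear subunits of at least 10 CPM. Its values of 16.4, 16.2, 23.8 and 27.1 CPM gave means of 16.3 ± 0.166 CPM (SD, n = 2) for mature and 25.4 ± 2.31 CPM (SD, n = 2) for elderly libraries. The log2 fold change of 0.64 (SE 0.25, 95% interval 0.10 to 1.18) had an unadjusted p of 0.0239 and did not pass after adjustment (adjusted p = 0.312). Under every alternative run, its adjusted p stayed above the threshold.

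Several complex IV subunits exist as tissue isoforms, and the form known from most tissues was the more abundant one where both could be counted. Per kilobase, Cox4i1 stood at 155 CPM and Cox4i2, the lung isoform tied to low oxygen, at 2.97 CPM, from 3 to 5 counts a library on 116 countable bases. Cox8a stood at 151 CPM against 1.82 CPM for Cox8b, a heart, muscle and brown fat isoform, and Cox8c, a testis isoform, had 0 counts. Cox7a2 stood at 71.2 CPM against 5.22 CPM for the heart and muscle isoform Cox7a1. Cox6b1 stood at 124 CPM against 17.7 CPM for Cox6b2, known as a testis isoform.

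None of these isoforms was called, so no switch between them was detected. Cox6b2 was higher in both elderly libraries, at 8.998, 7.499, 12.7 and 9.89 CPM (log2 fold change 0.45, SE 0.30, adjusted p = 0.667). Cox6a1, the common form of its pair, had 3 to 12 counts a library on 213 countable bases of a 620-base transcript, and the muscle form Cox6a2 had 7 counts in elderly replicate 2 and 0 elsewhere. Cox7a2l, which is tied to the joining of complexes III and IV, had 0, 0, 2 and 4 counts on 69 countable bases. No fold is given for Cox6a2 and Cox7a2l, since 3 counts came to 0.195 to 0.270 CPM. Cox5b was likewise near 0, with 0, 0, 3 and 2 counts on 91 countable bases, which says little of its expression.

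**Figure D3:**
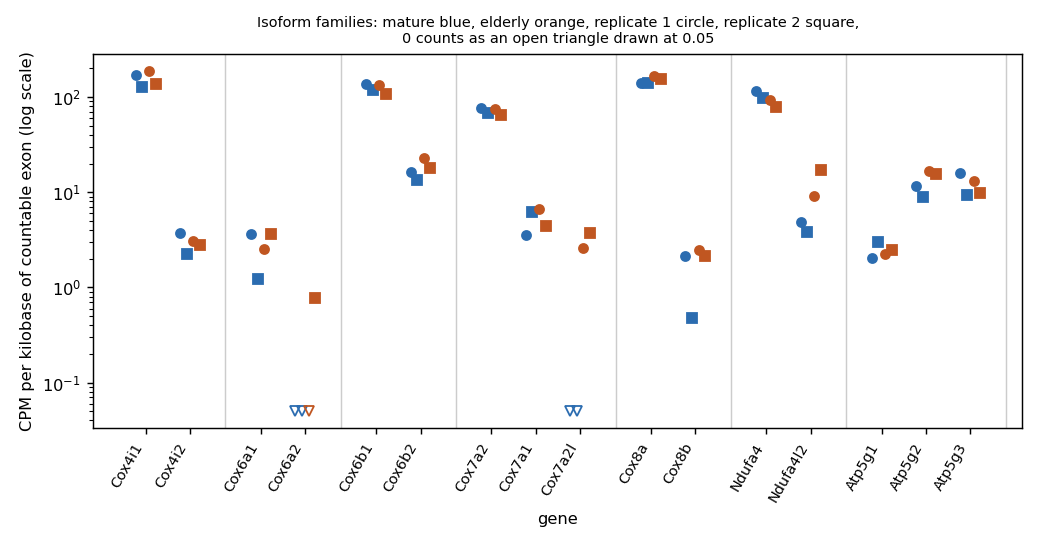
CPM per kilobase of countable exon (log scale) of the isoform families of complexes IV and V and of Ndufa4 and Ndufa4l2 in each library. Cox4i1, Cox6b1, Cox7a2 and Cox8a stand above their tissue isoforms in all 4 libraries, and Ndufa4l2 is the only gene called between ages.

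Complex V makes ATP. Its catalytic subunit Atp5b was counted at 56.1, 55.9, 76.5 and 69.2 CPM, higher in both elderly libraries (log2 fold change 0.38, SE 0.20, adjusted p = 0.546). The stalk and membrane subunit Atp5l overlapped between ages (log2 fold change -0.12, SE 0.26). Of its 40-base windows, 12.4% occur once in the genome.

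The c ring, which turns as protons pass, is built from a protein that 3 genes encode with the same mature sequence. Atp5g1 was counted at 8.91, 13.2, 9.65 and 10.7 CPM (log2 fold change -0.12, SE 0.31). Atp5g2 was counted at 7.61, 5.78, 10.7 and 10.1 CPM (log2 fold change 0.64, SE 0.31, adjusted p = 0.504), higher in both elderly libraries, but 0% of its windows occur once in the genome. Atp5g3 was counted at 23.4, 13.6, 19.2 and 14.5 CPM (log2 fold change -0.14, SE 0.31), none of it from coding transcripts.

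Atp5a1, the partner of Atp5b in the catalytic ring, illustrates how far the counting limits these levels. It had 31 to 53 counts a library, 53.7% of them from retained introns, on 894 countable bases, whereas its longest transcript holds 2674 bases. Over all nuclear members, 90.5% of counts came from coding transcripts, 6.23% from retained introns and 3.07% from processed transcripts. For 24 nuclear members most counts came from transcripts without a coding sequence, and 12 had fewer than 300 countable bases. Low counts of such genes are no sign of low expression.

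The mitochondria-encoded subunits were counted at very unequal levels. Cytochrome c oxidase subunit mt-Co1 had 35247, 29089, 36904 and 39912 counts, more than any other member. Its neighbours in the same complex, mt-Co2 and mt-Co3, had 45 to 86 and 74 to 156 counts. ATP synthase subunit mt-Atp6 had 29 to 36 counts, mt-Atp8 at most 1, and the complex I subunits mt-Nd3 and mt-Nd4l at most 12 and 1. The genes with few counts lie side by side in mitochondrial DNA, within a stretch that mouse chromosome 1 also holds. The copy runs over chrM:6394-11042 and, on the minus strand, chr1:24618374-24623023 (mm9). In its first 3435 aligned bases, 1 base differed.

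The stretches below show where the copy begins inside mt-Co1 and the first bases of mt-Co2. They were read from the mm9 genome, 5′ to 3′ on the strand of the mitochondrial genes, and capitals mark the bases of the copy that are identical in both places.
mt-Co1 (chrM:6379-6408, plus strand): gtggtctaaccggaaTTGTTTTATCCAACT
Copy at that edge (chr1:24623009-24623038, minus strand): atggattggcaggatTTGTTTTATCCAACT
mt-Co2 (chrM:7013-7042, plus strand): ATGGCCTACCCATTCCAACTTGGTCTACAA
Copy of mt-Co2 (chr1:24622375-24622404, minus strand): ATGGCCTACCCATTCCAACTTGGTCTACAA
The first 1066 bases of mt-Co1 lie before the copy and the last 479 within it, so a 40-base read from mt-Co2 matches at least 2 places in the genome. Of the windows of mt-Co1, 43.1% occur nowhere else, and other places hold part of the windows before the edge.

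The 6 genes wholly inside the copy (mt-Co2, mt-Atp8, mt-Atp6, mt-Co3, mt-Nd3 and mt-Nd4l) had 0% to 0.971% of their 40-base windows occurring once in the genome. Those of them that were tested stood at 1.61 to 12.7 CPM per kilobase. The other 7 had 37.7% to 100% of windows unique and stood at 23.3 to 1861 CPM per kilobase. How reads with several places in the genome were treated is not given in the sources used here, and its part in these levels was not tested. The sums of complexes IV and V of mitochondrial DNA therefore rest on few genes. In complex IV, nearly all counts were of mt-Co1.

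**Figure D4:**
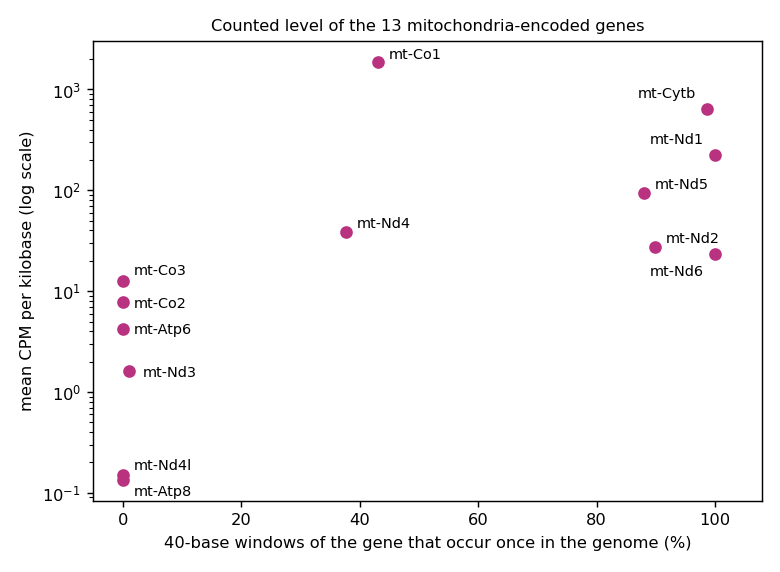
Mean CPM per kilobase (log scale) of each of the 13 mitochondria-encoded genes against the share of its 40-base windows that occur once in the mm9 genome. The 6 genes near 0% are the 6 lowest, and mt-Co1, with 43.1% of windows unique, is the highest.

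None of the mitochondria-encoded genes was called between ages. Among those outside the copy or only partly within it, cytochrome b (mt-Cytb, complex III) was counted at 822, 707, 755 and 633 CPM (log2 fold change -0.14, SE 0.19). The complex I subunit mt-Nd1 was counted at 223, 201, 238 and 195 CPM (log2 fold change 0.032, SE 0.19). The subunit mt-Nd5 was counted at 221, 152, 185 and 129 CPM (log2 fold change -0.25, SE 0.24), mt-Nd2 at 33.5, 25.3, 33.6 and 22.1 CPM (-0.082, SE 0.27) and mt-Nd4 at 64.4, 48.4, 57.8 and 42.0 CPM (-0.18, SE 0.24).

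The mitochondria-encoded genes differed alike between the libraries of an age. In CPM, 10 of the 11 tested mitochondria-encoded genes were higher in replicate 1 than in replicate 2 in both ages, mt-Nd3 with 3 to 12 counts being the exception. Of the 41 nuclear members of at least 10 CPM, 22 showed that order. The share of all tested genes with that order was not taken, so it cannot be called particular to mitochondria-encoded genes. The mitochondrial ribosomal RNAs, which are no members, had that order too, with 16554, 12930, 23235 and 14690 CPM. The labels give the replicate number no meaning beyond counting, and what sets these libraries apart was not tested.

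Subunit mt-Nd6 varied most. It is the only member encoded on the other strand of mitochondrial DNA (chrM:13552-14070, minus strand) and had 318 and 43 counts in mature and 131 and 62 in elderly libraries. The mature libraries differed 7.42-fold in CPM and the elderly ones 2.93-fold. The log2 fold change was -0.99 (SE 0.69, adjusted p = 0.67). Without mature replicate 2 it was -1.85 and was called lower (adjusted p = 0.018), and without mature replicate 1 it was 1.07 (adjusted p = 0.594), so the direction rests on the mature library that is kept. Its neighbour on that strand, the tRNA gene mt-Te, had 26, 3, 19 and 6 counts, in the same order of libraries.

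**Figure D5:**
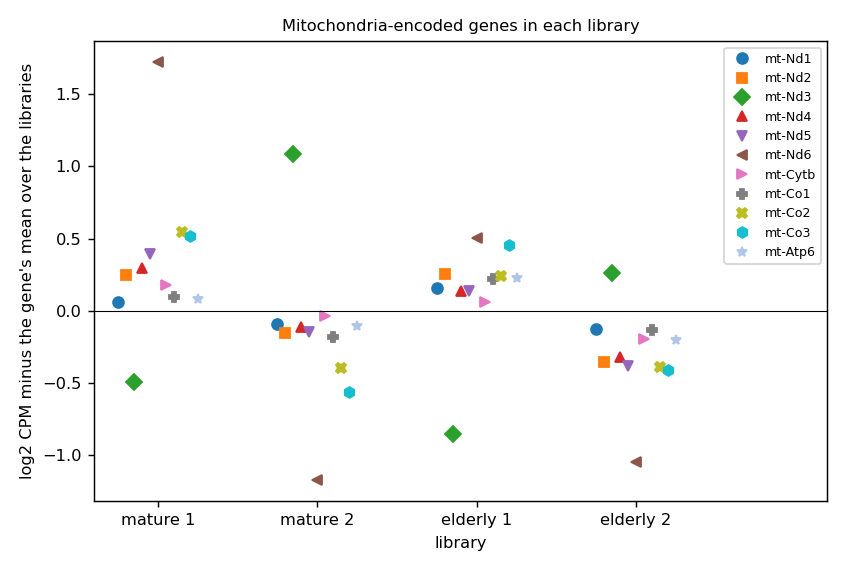
Log2 CPM of the 11 tested mitochondria-encoded genes in each library, as the difference from the gene's own mean over the 4 libraries. Replicate 1 stands above replicate 2 in both ages for 10 genes, and mt-Nd6 spans the widest range.

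The wider pathway showed 1 further call. Lists of genes outside the rule were taken for electron carriers, assembly factors, mitochondrial gene expression and biogenesis, the citric acid cycle, and uncoupling and exchange carriers. The first 4 lists had 20, 35, 25 and 18 tested genes, and 0 of them were called in either direction. Their median log2 fold changes were -0.028, -0.084, -0.061 and 0.13. At an unadjusted p under 0.05, 4 of these 98 genes passed, Surf1, Nrf1, Polg2 and Twnk (listed as Peo1), a smaller share than the 10.9% of all genes.

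Of the 9 uncoupling and exchange carriers tested, only Ucp2 was called, and higher. Ucp2 encodes an inner membrane carrier that is also abundant in white blood cells. It was counted at 25.6 and 16.7 CPM in mature and at 63.2 and 54.7 CPM in elderly libraries (log2 fold change 1.48, SE 0.25, edgeR adjusted p = 0.0108). Both elderly libraries lay above both mature ones. In the same libraries 4 of 7 neutrophil, 4 of 7 macrophage and 5 of 10 erythroid markers were called higher, and their part in the level of Ucp2 was not tested. Ucp1, the carrier of brown fat, had 0 to 4 counts a library.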

How the data were processed

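The 4 libraries were directional. The study's methods give poly(A) selection for all samples except AMB and HU MSC, which were processed as total RNA. AMB is named with an age in weeks close to that of the mature mice. Whether any of the 4 libraries is such a sample, or whether preparation differed between the ages, cannot be told from the labels. Mitochondrial ribosomal RNAs took 1.60% and 1.28% of counts in mature and 2.46% and 1.44% in elderly libraries, with overlap. The part of preparation in any level was not tested. The authors trimmed reads with cutadapt, mapped them with HISAT2 to mm9 (NCBI Build 37) and counted with featureCounts; strand setting and treatment of shared bases are not given in the sources used here. The deposited values are raw counts per Ensembl transcript. Of 95883 transcripts, 95495 matched GENCODE M1 (mm9). The 25621 transcripts whose exons other transcripts cover wholly were all at 0, so reads on shared bases were not counted. Counts were summed per gene. Genes with a sum over 2 (22214) were scaled by TMM and tested with edgeR 4.0.16 (quasi-likelihood, 2-sided, prior count 0.125, R 4.3.3), with Benjamini-Hochberg adjustment over all genes and calls at adjusted p under 0.05, where the study used edgeR's exact test with a dispersion of 0.2. Summed levels were compared by exact permutation. Windows of 40 bases, the length of each read of a pair, were searched singly in the mm9 genome on both strands. Since the other read of a pair can also place it, the shares of unique windows are not shares of pairs that can be placed.

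The members, pathway lists and marker lists were chosen with earlier results of these data known. Named were the mitochondria-encoded genes, called genes, the 3 nuclear subunits of each complex with the highest level per kilobase, those with the highest and lowest fold change at a mean of at least 10 CPM, and isoform pairs. Ndufs5, Ndufs6, Cox5b, Atp5a1, Cyc1, Surf1, Nrf1, Polg2, Twnk and Ucp1 were named after their values were seen. Alternatives were DESeq2 1.42.0, the exact test, other filters and scalings, a robust fit, coding transcripts only, the most counted transcript, a replicate block, a prior count of 2, a threshold on the fold, and leaving out each library. The sources used here do not say whether the libraries of 1 age are separate animals or pools, so p-values measure only the spread between these libraries.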

Additional observations from a re-analysis of the deposited data

How the results depend on the processing

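The count of members called higher was 0, instead of 1, with the exact test at a dispersion of 0.2, with a threshold of 2 on the absolute log2 fold change, and without each single library (0 to 0). The count called lower was 0 to 1 without 1 library. It was 1, mt-Nd6, without mature replicate 2. The median log2 fold change of nuclear subunits ranged from -0.081 to 0.095 without 1 library, and from -0.0030 to 0.105 under the other fits. It was -0.017 with undetected members at the limit their counts allow, an alternative chosen after seeing the data. Keeping only members with over 30% of windows unique, also added then, left both medians at 0.047 and -0.14. The median of mitochondria-encoded subunits ranged from -0.39 to 0.13 without 1 library and from -0.18 to -0.073 under the other fits, so its sign rests on the libraries kept. The log2 ratio of summed CPM of nuclear subunits ranged from -0.031 to 0.135 and that of mitochondria-encoded subunits from -0.14 to 0.19 without 1 library, also added after seeing the data. Library size alone as the scaling moved the median of all genes to 0.054. The replicate number as a block left 1 member higher and 0 lower, with medians of 0.030 and -0.14, while calls over all genes went from 430 higher and 94 lower to 962 and 314. Deviations of mature replicate 1 and elderly replicate 1 correlated at r = 0.00919 across all tested genes. Whether libraries of the same number share more than that number was not tested. Over all genes, DESeq2 called 553 and 153, the exact test 179 and 29, no filter 866 and 218, the robust fit 691 and 188, and the fits without an elderly library 0 and 0. Without 1 library, an age rests on a lone sample assumed to vary like the other age. Of 620 values of 42 named genes under the alternatives, 614 kept their side of the threshold, 5 calls were lost, all of Ndufa4l2, and 1 was gained, of mt-Nd6.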
